A study of Mus musculus with 6 samples.

Results

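The lung makes antibody through B cells and plasma cells that sit among its airways and vessels, and the variable segment that each such cell transcribes is the part of the antibody that meets the antigen. The 152 rows of the deposited expression table whose names begin with Ighv, Igkv or Iglv, out of 21900 genes, are described here across 6 mouse lung libraries. They comprise 74 heavy chain variable segments (Ighv, chromosome 12), 75 kappa light chain segments (Igkv, chromosome 6) and 3 lambda light chain segments (Iglv, chromosome 16). The rule takes members by name and uses no measured value. All 152 identifiers were found in GENCODE release M21 on the mm10 build, where 151 are annotated as variable segment genes, out of 218, and 1 as a pseudogene; the other annotated segments were not analysed here. The study asked how loss of CYP1B1, a cytochrome P450 enzyme, changes the lung under a high fat diet. All 6 libraries are from lungs after 10 weeks of that diet: 3 are labelled wild type and 3 labelled Cyp1b1 knockout, each with 2 females (libraries 1 and 2) and 1 male (library 3). Values given for the 3 libraries of a label are always in the order 1, 2, 3, so that the male comes last. The sources used here give no strain, age or knockout allele and do not say whether each library is a separate animal; p-values therefore speak only of the spread among these libraries.

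A B cell builds its heavy and light chain genes by joining 1 variable segment to short joining segments (and, for the heavy chain, a diversity segment), next to the constant gene. Each B cell and its offspring then transcribe mainly 1 heavy and 1 light variable segment. In a mixed tissue the level of a segment therefore sums over all B cells and plasma cells that joined it, weighted by how much antibody RNA each makes. Plasma cells, the antibody-secreting end stage, hold far more of that RNA per cell than resting B cells. Fewer cells of a type and less RNA per cell cannot be told apart in these bulk libraries. Gene-level values also do not read the joined region or pair a heavy with a light chain, so clones as such were not measured.

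Segments are read by sequences that can be close to identical, which bears on each level below. Segments that carry the uneven usage described further on, and Igkv1-117 as the close relative of Igkv1-110, are shown from GENCODE M21 transcripts. Each of these 6 is given 5′ to 3′ as the first 300 bases of exon 2, which encodes most of the variable domain. Capitals mark bases that differ from, or are missing in, the named relative. Igkv1-110 (mm10, chr6:68270955-68271254, plus strand) and Igkv1-117 (chr6:68121515-68121814, plus strand) are compared with each other and differ at 10 positions of the whole exon (96.8% identity).
Igkv1-110: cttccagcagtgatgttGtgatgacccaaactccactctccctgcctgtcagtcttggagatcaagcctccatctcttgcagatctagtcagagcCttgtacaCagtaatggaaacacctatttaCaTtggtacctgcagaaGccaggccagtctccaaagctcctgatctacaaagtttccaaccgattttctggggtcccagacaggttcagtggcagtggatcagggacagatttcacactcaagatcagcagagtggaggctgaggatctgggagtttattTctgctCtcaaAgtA
Igkv1-117: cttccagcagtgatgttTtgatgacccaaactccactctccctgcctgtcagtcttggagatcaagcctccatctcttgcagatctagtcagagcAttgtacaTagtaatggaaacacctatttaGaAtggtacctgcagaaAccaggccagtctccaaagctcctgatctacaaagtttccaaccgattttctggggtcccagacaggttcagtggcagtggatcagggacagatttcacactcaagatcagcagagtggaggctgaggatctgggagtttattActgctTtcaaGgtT
Iglv1 (chr16:19085022-19085321, minus strand) and Iglv2 (chr16:19260403-19260702, minus strand) are likewise set against each other, with 11 differing or missing positions and 96.4% identity. The first 3 bases of Iglv1 have no counterpart in the Iglv2 transcript shown, and another annotated Iglv2 transcript starts its exon 3 bases earlier.
Iglv1: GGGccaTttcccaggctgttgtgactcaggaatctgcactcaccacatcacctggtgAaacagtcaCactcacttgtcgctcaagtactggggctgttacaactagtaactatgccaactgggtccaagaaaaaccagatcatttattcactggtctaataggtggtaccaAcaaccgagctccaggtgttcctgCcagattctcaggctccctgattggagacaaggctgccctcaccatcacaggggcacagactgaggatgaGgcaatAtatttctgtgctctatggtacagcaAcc
Iglv2: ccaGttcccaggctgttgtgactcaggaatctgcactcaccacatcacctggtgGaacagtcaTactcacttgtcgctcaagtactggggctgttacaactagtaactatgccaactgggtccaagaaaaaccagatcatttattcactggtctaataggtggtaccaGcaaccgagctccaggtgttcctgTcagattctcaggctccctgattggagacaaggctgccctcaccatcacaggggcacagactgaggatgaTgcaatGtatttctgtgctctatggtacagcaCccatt
Igkv8-30 (chr6:70117077-70117376, minus strand) is set against Igkv8-21, from which it differs at 25 positions of the exon.
Igkv8-30: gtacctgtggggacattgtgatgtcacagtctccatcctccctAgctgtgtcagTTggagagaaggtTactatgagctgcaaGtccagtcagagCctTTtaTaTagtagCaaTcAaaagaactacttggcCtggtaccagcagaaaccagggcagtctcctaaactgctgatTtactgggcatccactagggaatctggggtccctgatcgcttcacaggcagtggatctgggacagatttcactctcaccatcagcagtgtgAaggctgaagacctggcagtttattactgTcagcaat
Ighv9-3 (chr12:114140697-114140996, minus strand) is set against Ighv9-2, from which it differs at 17 positions of the exon, 15 of them in the bases shown.
Ighv9-3: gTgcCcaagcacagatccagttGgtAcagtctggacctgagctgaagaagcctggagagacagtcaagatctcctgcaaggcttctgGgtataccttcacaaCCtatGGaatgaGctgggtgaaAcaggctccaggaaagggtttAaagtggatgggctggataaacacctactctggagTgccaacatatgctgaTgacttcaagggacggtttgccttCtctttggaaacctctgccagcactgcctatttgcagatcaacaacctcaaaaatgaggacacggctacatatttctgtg
Over the 152 segments the median share of 50-base stretches found in no other annotated transcript was 77.0%. All such stretches were unique in 27 segments, and under 50% of them in 26. The share was 55.8% for Igkv1-110, 56.5% for Igkv1-117, 80.7% for Igkv8-30, 76.8% for Ighv9-3 and 74.8% for both Iglv1 and Iglv2. Somatic changes in the sequence, and the authors' handling of reads that fit several places, can therefore move reads between near relatives or lose them.

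Facts of the libraries that touch these values are as follows. The unit is CPM, a count scaled to 1000000 gene-assigned reads per library. Depth, read from the smallest step between low values, was between 20.2 and 27.6 M (1000000) reads per library, and 3 reads, used as the floor of detection, were worth between 0.109 and 0.148 CPM. Cyp1b1, the targeted gene, was at 12.5, 19.0 and 18.5 CPM under the wild type label and at 51.2, 56.1 and 48.4 CPM in those labelled knockout. Its level was thus above, not below, that of the other label in each library labelled knockout, and every direction given for genotype rests on the labels. Both males stood apart in other cell type markers. A list of 7 neutrophil markers summed to 5800 CPM in the male labelled knockout against 107 to 196 CPM elsewhere. The 11 T cell markers were highest in the male labelled wild type, with a sum of 234 CPM, and lay between 54.2 and 76.3 CPM elsewhere. Of 8 lung epithelium markers, all were detected in every library, with sums from 23335 CPM in the male labelled knockout to 43870 CPM.

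The summed level of variable segments differed 21.7-fold between libraries, and the male libraries held both extremes. It was 72.8, 115 and 765 CPM under the wild type label and 173, 87.7 and 35.2 CPM under the knockout label. The male labelled wild type was 8.16-fold above the mean of the females with its label, and the male labelled knockout 3.70-fold below the mean of its females. The 4 females lay between 72.8 and 173 CPM, and their labels overlapped. The label means were 317 ± 388 CPM (SD, n = 3) for wild type and 98.6 ± 69.5 CPM (SD, n = 3) for knockout, a log2 ratio of -1.69. The difference of these means is smaller than the SD of the wild type label. Without the male labelled wild type the log2 ratio was 0.07, and in the females alone 0.48.

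**Figure D1:**
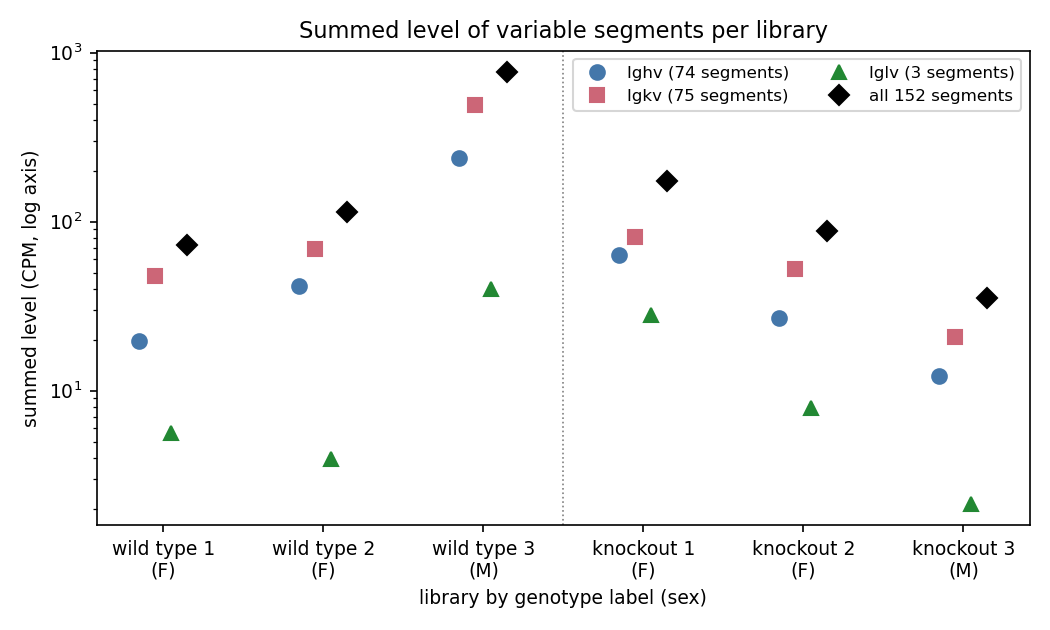
Summed level of variable segments (CPM, log axis) in each library, for heavy (Ighv), kappa (Igkv) and lambda (Iglv) segments and for all 152. Total levels run from 35.2 CPM in the male labelled knockout to 765 CPM in the male labelled wild type, and the females lie between.

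Each locus showed the same extremes. Heavy chain segments summed to 19.7, 41.7 and 237 CPM under the wild type label and to 63.6, 27.1 and 12.3 CPM under the knockout label. Kappa segments summed to 47.4, 69.1 and 488 CPM and to 81.3, 52.7 and 20.8 CPM in the same order. Lambda segments summed to 5.65, 3.96 and 39.8 CPM and to 28.1, 7.90 and 2.14 CPM. Mouse antibodies use mostly kappa light chains, and lambda made 5.42% to 13.04% of the light chain variable level in 5 libraries but 25.7% in labelled knockout 1. The constant genes did not single out that library. The ratio of Igkc, the kappa constant gene, to the summed lambda constant genes was 9.77 in labelled knockout 1. This ratio was lower in labelled wild type 1 and between 9.997 and 38.6 in the remaining libraries. Why variable and constant genes differed here was not tested.

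The rise in the male labelled wild type ran across most segments. It was the highest library for 123 of the 152 segments (80.9%), against 24.6% of all genes in the table. Among the 58 segments whose mean over the other 5 libraries was at least 0.5 CPM, it was the highest for 48 (82.8%), against 25% of genes chosen in that way. Labelled knockout 1 was the highest for 13 segments, labelled knockout 2 for 6, labelled wild type 2 for 5, labelled wild type 1 for 3 and labelled knockout 3 for 2. A library total that is high raises every segment's chance of being highest, so these counts restate the totals segment by segment.

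Constant genes and cell markers followed the totals to different degrees. Jchain, which joins IgA and IgM units in plasma cells, had 8.54, 60.5 and 347 CPM under the wild type label and 64.2, 28.2 and 9.12 CPM under the knockout label. Its order over the libraries matched that of the segments except at the low end, where labelled wild type 1 lay below labelled knockout 3. The 14 B cell markers, which include Ms4a1, moved less and summed to 436, 252 and 486 CPM and to 435, 322 and 155 CPM. The segment level per unit of that B cell sum was 0.167, 0.455 and 1.57 under the wild type label and 0.398, 0.272 and 0.227 under the knockout label. Labelled wild type 1 thus had the second highest B cell sum but the lowest segment level for it. All 14 B cell markers were detected in every library. The 14 plasma cell markers, many of which other lung cells also express, summed to between 686 and 1269 CPM. Single members of that list differed in their order over the libraries, as these examples show. Mzb1 ran from 1.44 CPM (the male labelled knockout) to 14.4 CPM (the male labelled wild type). Prdm1 ran from 11.0 CPM (labelled knockout 2) to 20.4 CPM (the male labelled wild type). Sdc1 ran from 148 CPM (the male labelled knockout) to 251 CPM (labelled wild type 2). Tnfrsf17, at 0 to 0.335 CPM, was highest in labelled wild type 1. Rag1, which joins the segments in B cell precursors, stayed at or below 0.726 CPM. The part of these cell types in the segment levels was not tested.

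The kinds of heavy chain behind the variable segments differed between libraries as well. Igha, the constant gene of the mucosal antibody IgA, was at 26.0, 49.95 and 966 CPM under the wild type label and at 169, 121 and 33.3 CPM under the knockout label. It made 50.1% of the heavy chain constant level in the male labelled wild type, 8.36% and 9.22% in the females with that label, and 29.9%, 36.2% and 23.0% under the knockout label. Ighg2c, an IgG constant gene, was at 284 CPM in the male labelled wild type and between 0.921 and 5.29 CPM elsewhere. All switched constant genes together, those other than Ighm and Ighd, made 73.5% of the heavy constant level in that male and between 10.8% and 39.7% in the other libraries. These shares are of CPM that are not divided by length. The ratio of summed kappa variable segments to Igkc, the kappa constant gene, was between 0.306 and 0.602 over the 6 libraries, and that of summed lambda segments to the lambda constant genes between 0.309 and 1.49.

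The number of segments detected followed the totals only at the extremes. Labelled wild type 2 had a higher total than labelled wild type 1 and labelled knockout 2 but fewer segments detected. With at least 3 reads counted as detected, there were 108, 103 and 143 segments under the wild type label and 121, 111 and 73 under the knockout label. All 152 were detected in some library, but so were all 21900 genes of the table, so that count is not particular to the segments. A segment could be in the table through a single library in which it was high. Of the 152, 43 were detected in every library, and 87 had no read in at least 1 library. The segments took 1739, 2319 and 17916 reads in the libraries labelled wild type and 3860, 2418 and 903 reads in those labelled knockout, so detection was compared again at 903 reads each. The expected numbers were then 86.1, 63.9 and 80.0 in the libraries labelled wild type and 81.7, 82.7 and 73 in those labelled knockout. At equal reads the male labelled wild type no longer led, and labelled wild type 2 had the fewest segments. The label means were 118 ± 21.8 and 101.7 ± 25.3 segments (SD, n = 3 each) in all reads. At equal reads they were 76.7 ± 11.5 and 79.1 ± 5.35 (SD, n = 3 each). Both differences lay within the spread of the labels, and the direction turned.

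**Figure D2:**
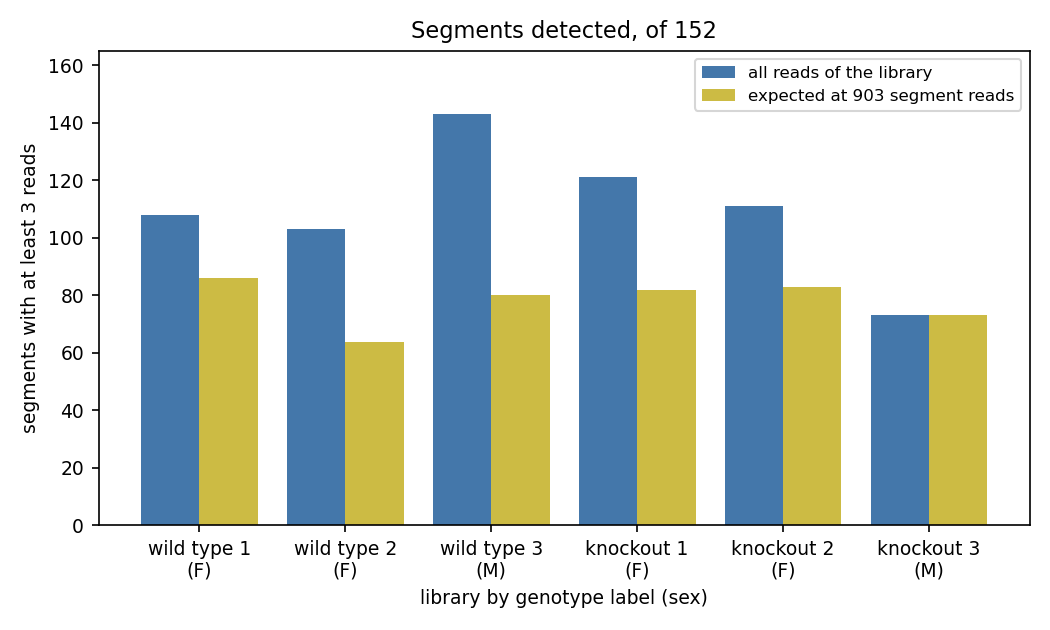
Number of segments with at least 3 reads in each library, of 152, in all reads (blue) and the number computed for 903 segment reads (yellow). The male labelled wild type leads with 143 in all reads but not at equal reads, where labelled wild type 2 is lowest at 63.9.

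Usage was spread widely in 4 libraries and was concentrated on few segments in labelled wild type 2. The male labelled wild type had a single large segment beside wide usage of the others. The inverse Simpson index, which gives the number of equally used segments that would yield the same concentration, was 52.5, 16.2 and 20.1 under the wild type label and 34.8, 45.6 and 40.9 under the knockout label. The 5 largest segments held 22.1%, 43.7% and 33.6% of the level in the libraries labelled wild type and 27.7%, 23.8% and 24.2% in those labelled knockout. The 2 libraries of lowest index share a label, but labelled wild type 1 was the least concentrated of all 6, so the labels overlapped. With its largest segment left out, the male labelled wild type had an index of 57.4, the highest of the 6, and labelled wild type 2 one of 19.6. In labelled wild type 2, 8 segments made up 50% of the level, against 15 to 21 in the other libraries.

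The largest segment differed between libraries. It was Igkv10-96 in labelled wild type 1 (5.58% of the segment level), Ighv9-3 in labelled wild type 2 (16.0%) and Igkv1-110 in the male labelled wild type (19.6%). In labelled knockout 1 and 2 it was Iglv1 (11.8% and 7.98%), and in the male labelled knockout Igkv10-96 (7.42%). Per kilobase of coding length, which runs only from 338 to 394 bases, these shares were 5.69%, 16.2%, 19.4%, 11.9%, 8.02% and 7.54%. Label means of the largest share were 13.7% ± 7.29 for wild type and 9.07% ± 2.39 for knockout (SD, n = 3 each), a difference within the spread. Leaving out the male labelled wild type cut that difference from -4.66 to -1.72 percentage points, and leaving out labelled wild type 1 raised its size to -8.73.

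**Figure D3:**
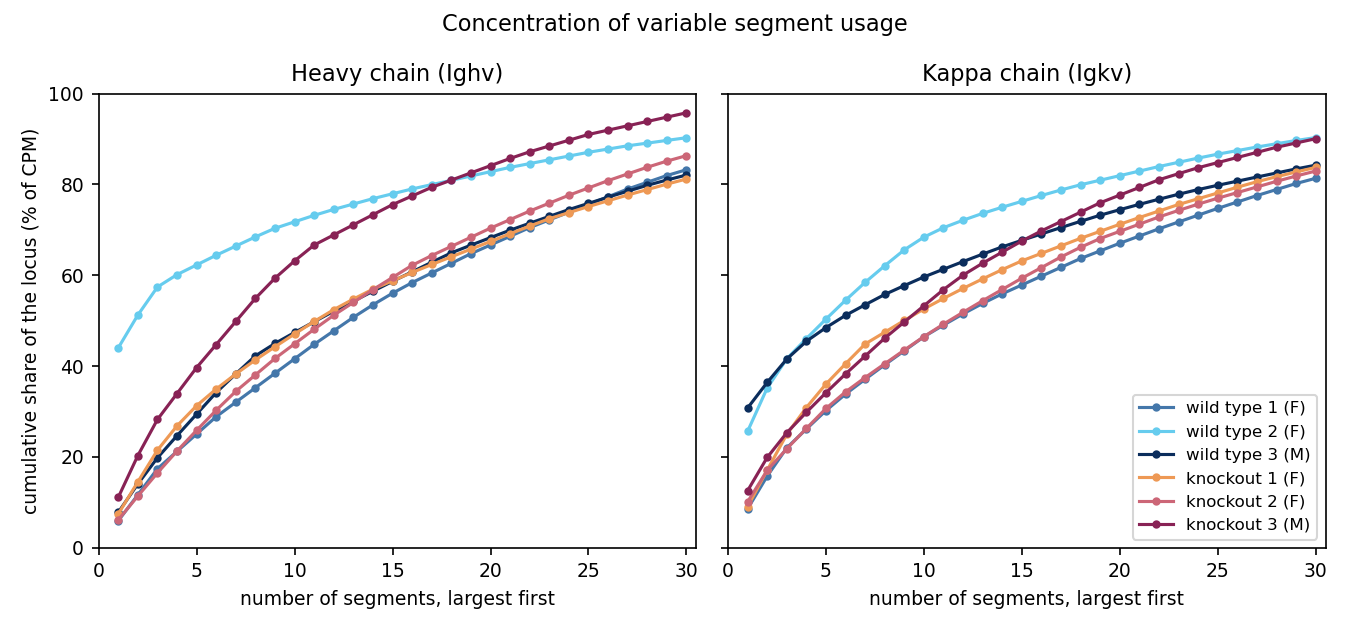
Cumulative share of the locus level (percent of CPM) against the number of segments, largest first, for heavy (left) and kappa segments (right), 1 line per library. Labelled wild type 2 starts at 44.0% in the heavy chain and 25.6% in kappa, and the male labelled wild type at 30.8% in kappa.

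Among heavy chain segments, labelled wild type 2 rested on Ighv9-3. The level of this segment was 0.502, 18.3 and 2.60 CPM under the wild type label and 0.807, 0.544 and 0.117 CPM under the knockout label. It held 371 of 843 heavy segment reads in labelled wild type 2, or 44.0% (95% Wilson interval 40.7% to 47.4%). Its share was 2.55% and 1.10% in labelled wild type 1 and 3 and 1.27%, 2.01% and 0.953% under the knockout label. Intervals of this kind cover counting error only, as reads are not independent molecules. The heavy chain index was 4.81 in labelled wild type 2, against 19.6 to 34.3 elsewhere, and it rose to 21.9 when Ighv9-3 was left out. The next heavy segments of that library, Ighv5-6 and Ighv1-75, held 7.24% and 6.17%.

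The same library had a single large kappa segment. Igkv8-30 was at 0.628, 17.7 and 25.1 CPM under the wild type label and at 0.627, 0.181 and 0 CPM under the knockout label. It held 358 of 1396 kappa reads in labelled wild type 2, or 25.6% (95% Wilson interval 23.4% to 28.0%), and 5.15% in the male labelled wild type. Other libraries with reads had 0.344% to 1.33%, and the male labelled knockout had 0 of 533 reads, which allows a share of up to 0.563% when 3 reads are taken as the limit of a count of 0. Igkv9-120 and Igkv3-12 came next in labelled wild type 2 with 9.52% and 6.44% of kappa reads. Labelled wild type 2 thus had a single large segment in both chains; whether these come from the same cells cannot be read from gene-level values.

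The male labelled wild type rested on Igkv1-110. This segment was at 3.41, 2.52 and 150 CPM under the wild type label and at 6.54, 1.60 and 0.741 CPM under the knockout label. Its highest library was 50.5 times its median library. It held 3514 of 11422 kappa reads in that male, or 30.8% (95% Wilson interval 29.9% to 31.6%), against 3.03% to 8.05% elsewhere. Igkv1-117, the close relative printed above, reached 27.4 CPM there, and the ratio of Igkv1-110 to Igkv1-117 was 5.47 in that library and between 0.299 and 1.36 in the others. No heavy segment was as large in the male labelled wild type. Ighv1-55, the largest, held 7.80% of heavy reads, Ighv1-53 6.26% and Ighv3-6 5.75%. The heavy chain index of that library was 30.98, within the range of the others, whereas its kappa index was 9.13 and rose to 32.3 without Igkv1-110.

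Lambda usage turned on Iglv1 in every library. Iglv1 was at 3.73, 2.77 and 35.1 CPM under the wild type label and at 20.4, 6.997 and 1.91 CPM under the knockout label, or 65.9% to 89.1% of the lambda level. Iglv2 stood out in labelled knockout 1 at 7.12 CPM, where it made 25.4% of the lambda level, against 0.156 to 2.01 CPM in the other libraries. The ratio of Iglv1 to Iglv2 was 2.87 there and between 4.67 and 17.5 elsewhere. Iglv3, whose sequence is further from both (57.6% identity with Iglv1), was at 1.38, 0.594 and 2.73 CPM under the wild type label and at 0.538, 0.508 and 0.0781 CPM under the knockout label.

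**Figure D4:**
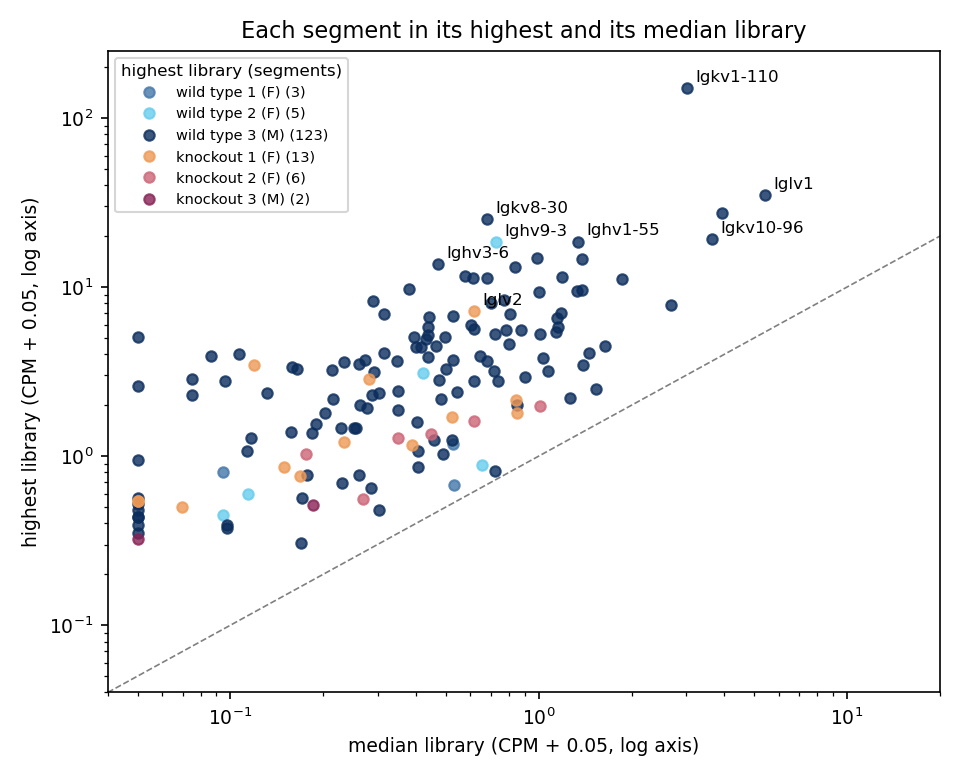
Each of the 152 segments in its highest library against its median library (CPM + 0.05, log axes), coloured by the highest library. Dark points of the male labelled wild type make up 123 of 152, Igkv1-110 lies farthest up at 150 CPM, and Ighv9-3 and Iglv2 are among the few named points with another highest library.

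Segment families group segments of similar sequence, and several varied between libraries. The 74 heavy segments fall into 15 families and the 75 kappa segments into 16. Ighv1, with 37 segments, held 50.8% to 60.1% of the heavy level in 5 libraries and 28.5% in labelled wild type 2. Ighv9 held 44.0% there, all of it Ighv9-3, and 1.40% to 6.37% elsewhere. Igkv8 held 32.4% of the kappa level in labelled wild type 2 and 4.13% to 8.87% elsewhere, and Igkv1 held 38.8% in the male labelled wild type and 12.4% to 22.3% elsewhere. Ighv2 held 2.39% to 15.6% and Ighv4, a single segment here, 0.213% to 9.20% of the heavy level, both with the most in the male labelled knockout. Igkv10, which includes Igkv10-96, held 4.58% to 15.8% of the kappa level, also with the most there, and Igkv14 2.54% to 11.7%, with the most in labelled knockout 1. The male labelled knockout had the fewest reads, 315 heavy and 533 kappa. Igkv4, the kappa family with the most segments (18), held between 8.17% and 12.6% in all 6 libraries. Position along the locus moved with the same segments. The 37 heavy segments nearest to Ighm held 70.8% of the heavy level in labelled wild type 2 and 38.6% to 45.9% elsewhere, and the 37 kappa segments nearest to Igkc held 56.6% there and 33.0% to 43.3% elsewhere.

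Pairs of libraries with the same label and pairs with different labels overlapped in usage to a like degree. The overlap of usage, the sum over segments of the smaller of 2 libraries' shares, had a median of 54.4% over 6 pairs with the same label (46.5% to 61.5%) and 55.2% over 9 pairs with different labels (40.6% to 64.4%). The most alike pair was labelled wild type 1 with labelled knockout 2 (64.4%), both female, and the least alike was labelled wild type 2 with the male labelled knockout (40.6%). Rank correlations over the 152 segments, which share each library's RNA and depth, ran from 0.355 to 0.525. Overlap was lower for heavy segments, with a median of 38.3% for the same label and 37.4% for different labels, than for kappa segments, with 60.0% and 51.1%. Heavy segments had fewer reads than kappa segments in every library, so counting error can lower their overlap more. The overlap was not compared at equal reads. The kappa ranges of both kinds of pair overlapped (49.5% to 65.4% and 47.5% to 67.4%).

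The effect of the genotype label on single segments was tested with limma on log2(CPM + 0.5), with sex as a term, over the 17382 genes with a mean of at least 0.5 CPM. Of the 152 segments 99 reached that mean, and 58 did so without the male labelled wild type. None of the 99 passed a limma adjusted p of 0.05, where 0.0115% of all genes did, and the lowest adjusted p among them was 0.775. By limma 6 segments had an unadjusted p under 0.05, against 5.13% of all genes, and all 6 were lower in the libraries labelled knockout (3.33% of genes in that direction). A segment that reaches the mean only through a library labelled wild type tends to differ between the labels, so the median is given for the 58, in a fit over the 17256 genes that pass that filter, a setting chosen after seeing the data. There the median log2 difference was -0.66, against -0.05 for all genes, with 47 below 0 and 11 above. None of the 58 passed (0.0232% of genes did), and 5 had an unadjusted limma p under 0.05 (5.19% of genes). The median was 0.52 over 58 segments without the male labelled wild type and 0.42 over 108 without the male labelled knockout. In the 4 females alone the direction turned as well: the median was 0.51 over 65 segments, against -0.003 for all genes, with 49 above 0 and 16 below. Again 0 of 65 passed (0.0406% of genes did), with 9 at an unadjusted limma p under 0.05 (2.69% of genes). The 65 were chosen by their mean over these females, where labelled knockout 1 had the highest total (173 CPM). A segment that entered through that library tends to a positive sign, so the filter can favour this direction.

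For 9 of the 99 segments the labels did not overlap, a share near that of all genes. These 9 were lower in all 3 libraries labelled knockout than in all 3 labelled wild type (9.09%, against 5.89% of all genes), namely 8 of the 52 kappa segments tested, 0 of the 44 heavy segments and Iglv3 of the 3 lambda segments; the difference between the chains was not tested. None was higher in all 3 labelled knockout (3.63% of all genes). Of the 99, only 58 reached the mean without the male labelled wild type. Entry through that male favours a lower level under the knockout label, and these counts were not repeated for the 58. The segment with the smallest limma p was Igkv3-12, at 1.47, 4.45 and 11.4 CPM under the wild type label and 0.807, 0.109 and 0.117 CPM under the knockout label. Its log2 difference was -2.63 (SE 0.61, limma adjusted p = 0.775). Igkv8-30 had a log2 difference of -3.47 (SE 1.03, limma adjusted p = 0.775), though the lowest library labelled wild type and the highest labelled knockout differed only between 15 and 14 reads. Igkv6-15 and Igkv4-72 also did not overlap. Igkv6-15 was at 1.55, 1.43 and 9.56 CPM against 0.627, 1.23 and 0.507 CPM, and Igkv4-72 at 1.47, 1.93 and 4.01 CPM against 0.359, 1.34 and 0.351 CPM. Igkv4-74, the last of the 5 smallest p, overlapped, with 0.377 CPM in labelled wild type 1 and 0.403 CPM in labelled knockout 1.

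No segment passed for sex either. With both labels in the fit, 0 of 99 had a limma adjusted p under 0.05 (0.834% of genes did), and 6 had an unadjusted p under 0.05 (15.3% of genes). Over the 58 segments, in the fit with the filter that leaves out the male labelled wild type, the median log2 difference, male minus female, was 0.59, against -0.06 for all genes. In total level the 2 males lay on opposite sides of the females. Without the male labelled knockout, 44 of 108 segments were called higher in the remaining male by limma, against 3.51% of genes called higher. The mean that admitted these 108 segments included the remaining male. Segments could thus enter through the library in which they were called higher, so the filter favours this direction. Over the 5 libraries other than the male labelled wild type, only 58 segments reached that mean. The 44 were not split by that filter. Without the male labelled wild type the direction turned. The median was then -1.09 over 58 segments, against -0.13 for all genes. None of the 58 passed (4.87% of genes did), and 20 had an unadjusted limma p under 0.05, all lower in the male (15.8% of genes in that direction). Each of these comparisons sets 1 library against 4.

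An interaction term in limma, which asks whether the genotype effect differs by sex, passed for 23 of the 99 segments. All 23 were negative, where 1.84% of all genes passed in that direction. They were 12 heavy segments, 10 kappa segments and Iglv1. The male labelled wild type was their highest library in all 23 and the male labelled knockout their lowest in 18; 16 of the 23 had a mean of at least 0.5 CPM also without the former. The other 7 entered the test only through the library in which they were high. With the filter applied to the other 5 libraries, 15 of 58 segments passed, where 1.64% of genes passed in that direction, and all 15 were among the 23. Of the 58, 43 had an unadjusted limma p under 0.05 and a negative sign (11.9% of genes), and their median interaction was -3.19, against -0.13 for all genes. Each label has 1 male, so this term sets 2 single libraries against the spread of the females and takes each male to vary as the females do. The same 2 libraries stood apart in the T cell and neutrophil marker sums given above, whose part in this result was not tested. Without a filter on low values, 0 of 152 segments and 0 of all 21900 genes passed, with 99 segments at an unadjusted p under 0.05 and a negative sign (10.1% of genes).

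The segments with the largest interaction were high in the male labelled wild type and low in the male labelled knockout. Igkv1-110 had an interaction of -7.08 on the log2 scale (SE 0.88, limma adjusted p = 0.00635). Ighv1-55 was at 1.17, 0.346 and 18.5 CPM under the wild type label and at 4.44, 1.41 and 0 CPM under the knockout label, with an interaction of -6.62 (SE 0.92, limma adjusted p = 0.00965). In this segment both females labelled knockout lay above both females labelled wild type. Iglv1 had an interaction of -5.64 (SE 0.77, limma adjusted p = 0.00908). The smallest p belonged to Igkv1-117, at 2.95, 2.87 and 27.4 CPM against 4.79, 5.33 and 1.52 CPM, with an interaction of -4.49 (SE 0.46, limma adjusted p = 0.00266). Igkv10-96 moved least of those named, at 4.06, 2.72 and 19.1 CPM against 3.54, 3.66 and 2.61 CPM, with an interaction of -2.75 (SE 0.51, limma adjusted p = 0.0326). The segments that dominated labelled wild type 2 did not pass. Ighv9-3 had an interaction of -0.43 (SE 1.90, limma adjusted p = 0.937) and Igkv8-30 one of -3.31 (SE 1.82, limma adjusted p = 0.385).

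**Figure D5:**
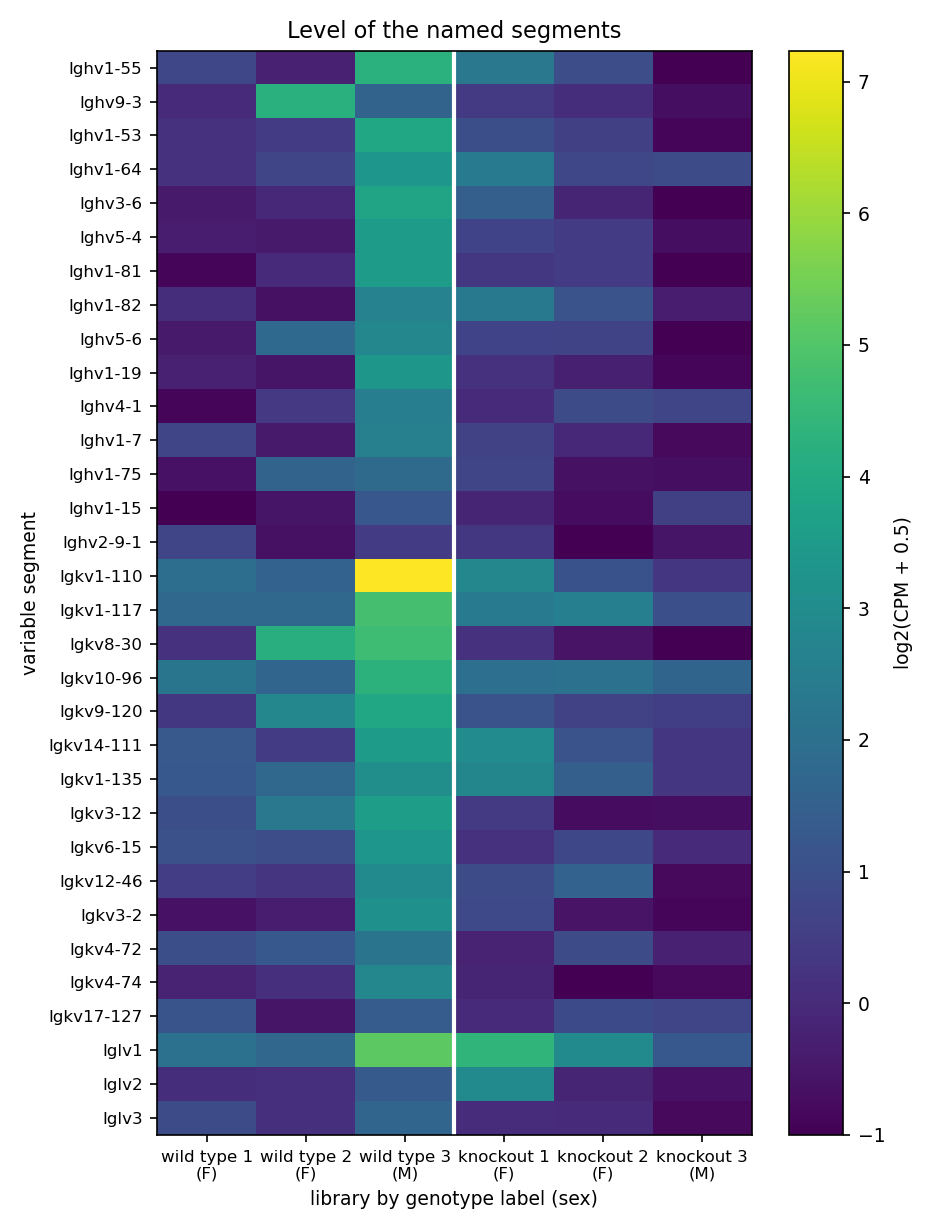
Level of the named segments, as log2(CPM + 0.5), in each library, with the genotype labels separated by the white line. The male labelled wild type is the brightest column, Ighv9-3 is brightest in labelled wild type 2, and Iglv2 in labelled knockout 1.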

How the data were processed

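RNA-seq was measured in 6 mouse lung libraries. The authors deposited 1 CPM value per gene and library, with 0.0001 added to each CPM value; that value was read as 0. Per the submitters' processing notes the build was mm10 and the tools TopHat2 and Partek. Their versions, the annotation, strand use and the treatment of reads with several matches are unknown from the sources used here, so reads of overlapping or antisense genes cannot be told apart. Of the 737 segment values above 0, 96.1% were whole reads within 0.05 of the step; reads were rounded, and no count model was used. Other tools were scipy 1.17.1, numpy 2.4.6, pandas 2.3.3, matplotlib 3.10.9 and Python 3.11.15.

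Genes were tested in R 4.3.3 by limma 3.58.1, with a trended variance, using log2(CPM + 0.5), which understates changes of low genes. Genotype label and sex were additive terms, with an interaction in a separate fit. It was two-sided, with Benjamini-Hochberg adjustment over all genes tested, a threshold of 0.05 and a check on simulated data. A filter on the 5 libraries other than the male labelled wild type was added after seeing the data. Totals, shares and overlaps are descriptions. Segments were named by rule: the 3 largest per locus and library, up to 10 called per direction whose mean reached 1 CPM, the 5 of smallest genotype p, and the 3 per locus with the highest ratio of highest to median library. Marker lists cover plasma, B, germinal centre, precursor, T, epithelial, neutrophil and erythroid cells, lymphoid follicles, antibody homing genes and T cell receptor segments. Members, rule and lists were chosen with earlier results of these data known.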

Additional observations from a re-analysis of the deposited data

Results flagged for a closer look

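For 13 named segments the genotype effect differed between the sexes by the interaction term of limma, given here as the log2 difference (males minus females). It was -7.08 for Igkv1-110, -6.62 for Ighv1-55, -5.74 for Ighv3-6, -5.64 for Iglv1 and -5.40 for Ighv1-81. It was -5.28 for Ighv1-53, -5.17 for Ighv5-4, -5.01 for Ighv1-82, -4.60 for Igkv3-2 and -4.58 for Ighv1-19. For Igkv12-46, Igkv1-117 and Igkv10-96 it was -4.55, -4.49 and -2.75. Each value rests on 1 male per label, and the male labelled wild type was the highest library of all 13. Ighv1-81, Igkv3-2 and Ighv1-19 reached the mean of 0.5 CPM for testing only through that male. A difference between the sexes and a difference between these 2 libraries cannot be told apart.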

How the results depend on the processing

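No segment was called for genotype under any setting tried, by limma. For sex, 44 of 108 were called without the male labelled knockout and 0 under the other settings. The interaction count of 23 became 39 with a pseudocount of 1, 36 with robust moderation, 14 with quantile normalization and 0 without a filter. It was 15 with the filter on the 5 libraries other than the male labelled wild type, a setting added after the data were seen. Interaction calls over all genes, in either direction, moved too: 441 in the main fit and 515, 621, 338, 0 and 399 in these settings. They were out of 17382 genes, save 21900 without a filter and 17256 in the last. Leaving out 1 library gave 13 (without labelled knockout 1) to 34; all 13 were among the 23. Neither male could be left out of that term. Of the 13 named segments, 11 passed under every setting that tested them but the absence of a filter; Igkv10-96 passed under 8 of 13 and Igkv3-2 under 6 of 12.

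The log2 ratio of label means of total CPM ran from -2.37 (without labelled knockout 1) to 0.0729 (without the male labelled wild type) when 1 library was left out. The difference in segments detected, labelled knockout minus labelled wild type, was -16.3 and ran from -26 to -2 (without the male labelled knockout; -3.83 without the male labelled wild type), and was 2.48 at equal reads. The difference in the largest share, -4.66 percentage points, ran from -8.73 (without labelled wild type 1) to -1.72 (without the male labelled wild type). No paired analysis was possible because the replicate numbers only name the libraries. Depth limits segments near 3 reads, and with 3 libraries per label 1 library can set any label mean.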

Other observations

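T cell receptor segments gave a further view of the same libraries. The 18 Trbv rows summed to 5.15, 2.42 and 10.2 CPM in libraries 1, 2 and 3 of the wild type label and to 3.36, 3.52 and 2.77 CPM in those of the knockout label. The 9 Trav rows summed to 0.963, 0.0495 and 2.60 CPM and to 1.03, 0.0363 and 0.741 CPM. Both were highest in the male labelled wild type, and the Trbv sum was lowest in labelled wild type 2. Between 4 and 11 of the 18 Trbv rows lay under 3 reads in each library. All 9 Trav rows did so in labelled wild type 2 and in labelled knockout 2, so the Trav sums give no order at the low end.

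Of genes that act in homing and secretion of antibody, the list of 10 ranged in sum from 576 CPM (the male labelled knockout) to 694 CPM (labelled knockout 1). The 6 germinal centre genes found summed to between 146 and 168 CPM. The 6 lymphoid follicle genes found had their highest sum in the male labelled wild type (166 CPM), their lowest in the male labelled knockout (69.3 CPM), and the females between (121 to 140 CPM). The 4 B cell precursor genes found summed to between 15.8 and 27.9 CPM, and 5 erythroid genes to 5848 CPM in the male labelled knockout against 851 to 2760 CPM elsewhere. These sums are descriptions of single libraries and received no test.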
